A study of Mus musculus with 6 samples.

Results

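Hyaluronan is a long sugar polymer of the matrix around cells, and its genes fall into those that make it, those that bind it and those that break it down. The account below covers 10 such genes in cultured salivary glands of mouse embryos: the hyaluronan synthases Has1, Has2 and Has3, the binding proteins Tnfaip6, Vcan, Cd44 and Hmmr, and the breakdown genes Hyal1, Hyal2 and Cemip. They were chosen by gene symbol from the platform annotation, with results of these arrays already known, and 9 of the 10 were found there, each with 1 probe set. Hyal1 was not found under its symbol and is not analysed here. The 9 stand among 19505 genes with a symbol. Where a gene had several probe sets, the one with the highest mean over all arrays stood for it. That choice did not use the groups, and it decided nothing for these 9.

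The 2 groups were glands exposed to TGF-β1, a growth factor whose receptors act through Smad proteins, and glands treated with nothing, 3 arrays each. The glands of both groups came from embryos at a stage the labels write as T13 and were cultured for 72 hours before their RNA was taken. The sources used here do not give the strain, the kind of salivary gland, the dose of TGF-β1 or the number of glands per array. Nor do they tell if replicates were separate cultures or animals, so the p-values rest on the spread between these arrays, which may be technical.

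Hyaluronan is spun out by synthases that sit in the cell membrane and join UDP-glucuronic acid to UDP-N-acetylglucosamine. Outside the cell the chain is bound by proteoglycans such as versican, crosslinked with the help of TSG-6 and held by receptors such as CD44, and it is cut by hyaluronidases. In developing branching glands the matrix of the mesenchyme around the epithelium is rich in it, and Has2 is the synthase that mouse embryos cannot do without.

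One control array was unlike all others. Over all genes, control 3 correlated with the other arrays at 0.550 to 0.601 (Pearson), while the other 5 correlated with each other at 0.948 to 0.990. Among these 5, TGF-β1 3 stood somewhat apart, at 0.948 to 0.953 with the rest. Actb, a cytoskeletal actin, was at 12.70 to 13.16 in the TGF-β1 arrays and at 13.26 and 13.34 in controls 2 and 1, but at 8.91 in control 3 (log2 values). Gapdh, a glycolytic enzyme, was at 11.87 to 11.98 in the TGF-β1 arrays and at 11.87 and 11.88 in controls 1 and 2, but at 6.21 in control 3. Each hyaluronan gene is therefore given with all 6 arrays and with control 3 weighted down or left out.

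The limma fits stand side by side. The unweighted fit of all 6 arrays called 0 of 19505 genes at an adjusted p under 0.05 (0% of all genes; 389 at an unadjusted p under 0.05). A fit with array weights counts each array by how closely it follows the fitted level of its own group. It gave controls 1, 2 and 3 weights of 1.65, 4.52 and 0.0338, so its control level rests most on control 2. TGF-β1 1, 2 and 3 had weights of 4.29, 2.33 and 0.398. This weighted fit called 6.88% of all genes. It takes these weights as known, so its p-values are too small. A fit of TGF-β1 1 and 2 against controls 1 and 2, without the third array of each group, called 2.59% of them. Below, "rose" and "fell" are used of genes that passed, in one direction, both with array weights and in the fit of 4 arrays, as 484 genes did (2.48% of all genes, 1.12% higher and 1.36% lower). The 2 fits of this rule rest largely on the same 4 arrays, and both count TGF-β1 3 for less or leave it out. With only control 3 left out, unweighted, 0 genes passed. The choice of this rule was made with the data in view.

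By that rule 1 of the 9 hyaluronan genes rose, Hmmr, and 2 fell, Has2 and Tnfaip6. The other 6 did not pass. The median difference of the 9 genes, TGF-β1 minus control, was -0.08 in the unweighted fit, -0.21 with array weights and -0.17 with 4 arrays, beside -0.14, 0.01 and 0.01 over all genes. The 3 and 3 arrays were without overlap for 1 member, Hmmr, as for 11.6% of all genes. These are values of whole glands, in which fewer cells of a type and less RNA per cell cannot be told apart.

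**Figure D1:**
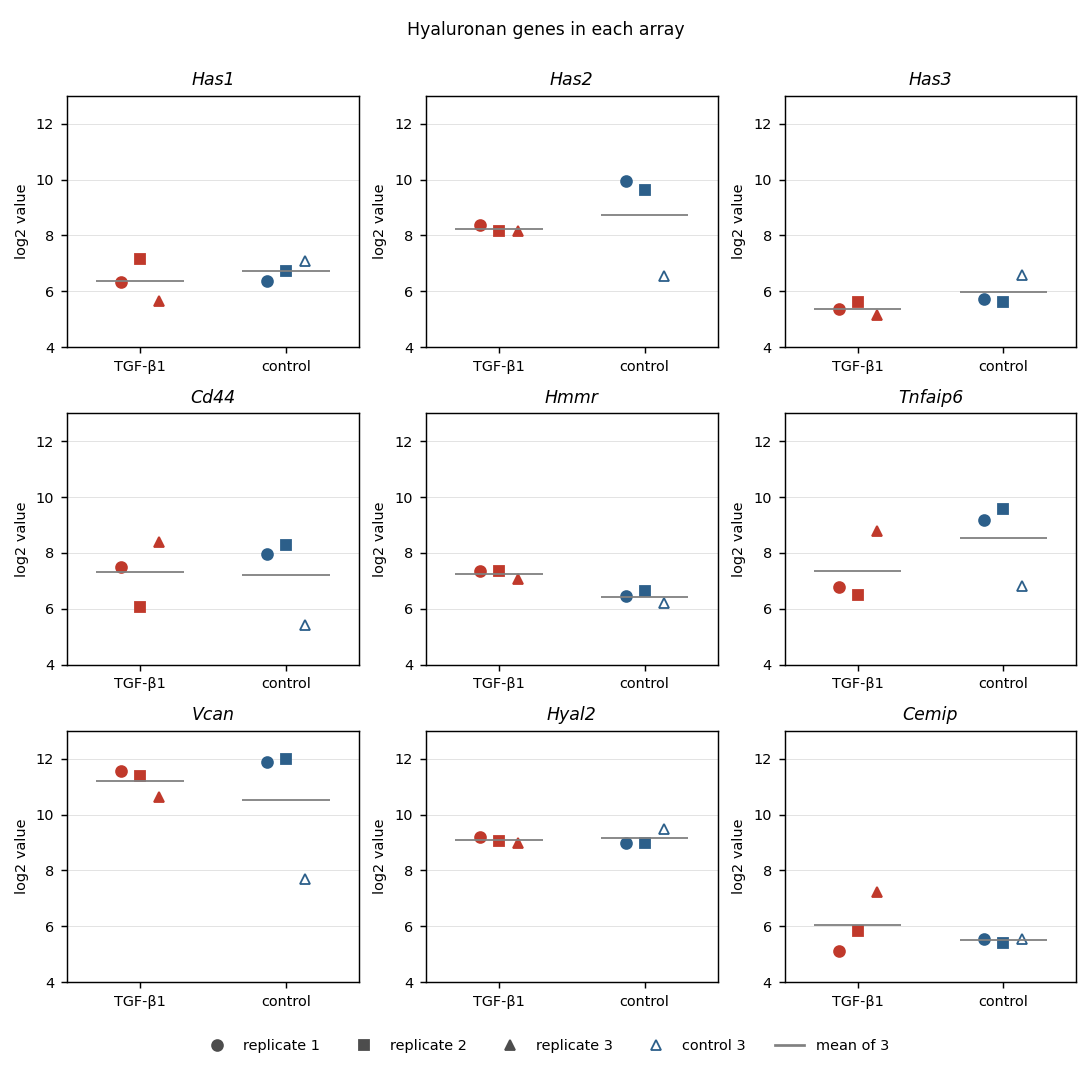
Log2 value (vertical axis) of the 9 measured hyaluronan genes in each TGF-β1 array (red) and each control array (blue), with symbols for the replicate number, an open triangle for control 3 and a line at the mean of 3 arrays. Has2 lies at 8.14 to 8.37 in all TGF-β1 arrays, below controls 1 and 2 and above control 3, and Hmmr lies higher in every TGF-β1 array than in every control.

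For 2 of the genes that passed, Hmmr and Tnfaip6, RefSeq gives a promoter, shown here. Each runs 5′ to 3′ on the gene's own strand over 300 bases, from 250 before to 50 after the transcript start, in build GRCm38.p6. The arrays' own build is not given in the sources used here. The Hmmr promoter lies at chr11:40733388-40733687 on the minus strand and the Tnfaip6 promoter at chr2:52037863-52038162 on the plus strand. Capitals mark matches, on either strand, to 8 motifs: CCAAT (read as ATTGG on the other strand), TTTGAA (the cell cycle genes homology region), TGANTCA (AP-1), CAGACA (the CAGA box bound by Smads), TATAAA, GGGNNTTNC (NF-κB), TGACGTCA (CRE) and TTGCNNCAA. The last is a string of letters only, and no search for C/EBP sites was made. No 2 of the matches overlapped.
Hmmr: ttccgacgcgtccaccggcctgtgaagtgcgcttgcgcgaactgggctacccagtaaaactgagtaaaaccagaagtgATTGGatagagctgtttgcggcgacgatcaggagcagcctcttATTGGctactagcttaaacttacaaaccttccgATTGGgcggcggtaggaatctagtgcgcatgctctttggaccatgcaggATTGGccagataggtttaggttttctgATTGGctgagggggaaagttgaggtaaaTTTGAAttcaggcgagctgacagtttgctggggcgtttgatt
Tnfaip6: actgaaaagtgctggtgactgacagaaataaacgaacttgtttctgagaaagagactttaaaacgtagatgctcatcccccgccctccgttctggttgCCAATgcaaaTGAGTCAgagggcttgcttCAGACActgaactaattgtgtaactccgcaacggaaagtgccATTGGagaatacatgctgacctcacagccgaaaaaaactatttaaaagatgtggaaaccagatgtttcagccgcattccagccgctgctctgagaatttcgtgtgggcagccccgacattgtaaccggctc

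The Hmmr window held 5 CCAAT boxes, which began 172, 129, 96, 47 and 20 bases before the start, and 1 TTTGAA at base 9 of the transcript. Of the 32851 promoters in the RefSeq set, 37.4% held a CCAAT box, 0.271% held 5 or more and 6.95% held both CCAAT and TTTGAA. The Tnfaip6 window held 1 AP-1 match (TGAGTCA, 142 bases before the start), 1 CAGACA at 123 bases and CCAAT boxes at 152 and 81 bases before the start. AP-1 matches were in 7.81% of all promoters and CAGACA in 21.0%. Of the other motifs searched, TTTGAA was in 17.9%, TATAAA in 13.6%, GGGNNTTNC in 15.2%, TGACGTCA in 1.79% and TTGCNNCAA in 2.08%. Such matches were not limited to the genes that passed. The promoter of Has1, which passed in no fit, held CCAAT at 203 and TTTGAA at 45 bases before the start. It also held TGACGTCA at 83 and CAGACA at 18 bases, and the promoter of Hyal1 held CAGACA at 118 bases. A match describes letters and is not a shown binding site. RefSeq's table gave promoters for 8 of the 10 genes; Has2 and Has3 are named only.

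Among the synthases, Has2 (Entrez gene 15117) was lower in the TGF-β1 arrays than in controls 1 and 2. Has2 makes most of the hyaluronan of the early embryo. It was at 8.37, 8.17 and 8.14 in TGF-β1 1, 2 and 3, against 9.95, 9.64 and 6.56 in controls 1, 2 and 3. The 3 TGF-β1 arrays lay close together, at least 1 log2 unit under controls 1 and 2, and above control 3. Has2 fell by 1.42 ± 0.18 with array weights (SE, limma adjusted p = 0.00107), a level 2.67-fold lower. With 4 arrays it fell by 1.52 ± 0.17 (limma adjusted p = 0.0156). Without control 3 and without weights the difference was -1.57 ± 0.18, which is as large but did not pass (limma adjusted p = 0.176). With all 6 arrays unweighted it was -0.49 ± 0.86 (limma adjusted p = 0.809), and with control 1 left out, control 3 kept, it was 0.12.

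Has1 and Has3 (Entrez genes 15116 and 15118), the other 2 synthases, did not pass in any fit. Has1 was at 6.34, 7.14 and 5.66 in TGF-β1 1, 2 and 3, against 6.38, 6.72 and 7.08 in the controls, and the TGF-β1 arrays spanned more than the controls did. Its difference with array weights was -0.07 (95% interval -0.59 to 0.45), with 4 arrays it was 0.19 and unweighted -0.35. Has3, the synthase of several epithelia, was at 5.36, 5.63 and 5.15 in the TGF-β1 arrays, against 5.71, 5.61 and 6.58 in the controls. The groups overlapped only through TGF-β1 2 and control 2, and control 3 was the highest array. The difference of Has3 was -0.21 with array weights (95% interval -0.54 to 0.12), -0.17 with 4 arrays and -0.59 unweighted (limma adjusted p = 0.776). Has3 lay little above the lower quartile of its arrays, which was 5.11 to 5.15 in all but control 3, where it was 5.79, and no measure of background is given. Whether Has2 differed from the other synthases in its change was not tested.

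Tnfaip6 (Entrez gene 21930) encodes TSG-6, a secreted protein that binds hyaluronan through its link domain and moves heavy chains of inter-α-inhibitor onto it. It was at 6.77, 6.49 and 8.79 in TGF-β1 1, 2 and 3, against 9.19, 9.59 and 6.80 in controls 1, 2 and 3. TGF-β1 1 and 2 lay far below controls 1 and 2, while TGF-β1 3 lay less than 1 log2 unit under them and control 3 lay with TGF-β1 1 and 2. Tnfaip6 fell by 2.68 ± 0.28 with array weights (SE, limma adjusted p = 3.77e-04), 6.41-fold, and it fell by 2.76 ± 0.19 with 4 arrays (limma adjusted p = 0.00597). Without control 3, unweighted, the difference was -2.04 ± 0.68 (limma adjusted p = 0.528), and with all 6 arrays it was -1.18 ± 0.89 (limma adjusted p = 0.776).

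Vcan (Entrez gene 13003) encodes versican, a large proteoglycan that binds hyaluronan and fills the loose matrix of embryonic mesenchyme. It was at 11.56, 11.37 and 10.65 in TGF-β1 1, 2 and 3, against 11.87, 12.00 and 7.70 in the controls. All 3 TGF-β1 arrays lay under controls 1 and 2, and control 3 lay far below every other array. The difference was -0.49 with array weights (95% interval -0.94 to -0.04, limma adjusted p = 0.202) and -0.46 with 4 arrays (limma adjusted p = 0.178), and neither passed over all genes. With all 6 arrays unweighted the sign turned, to 0.67 ± 1.11. The probe set is annotated to 5 transcripts of Vcan, so its splice forms, which differ in their sugar-bearing domains, were not told apart.

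Cd44 (Entrez gene 12505), the main cell surface receptor of hyaluronan, varied widely within the TGF-β1 group. It was at 7.50, 6.07 and 8.38 in TGF-β1 1, 2 and 3 (SD 1.17), against 7.95, 8.27 and 5.41 in the controls. TGF-β1 2 was low, TGF-β1 3 lay above all controls and control 3 was the lowest array. The difference was -1.09 with array weights (95% interval -1.88 to -0.30, limma adjusted p = 0.101), -1.32 with 4 arrays (limma adjusted p = 0.159) and 0.11 unweighted (limma adjusted p = 0.958). The probe set is annotated to 6 transcripts, and CD44 is known for splice forms that this value does not separate.

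**Figure D2:**
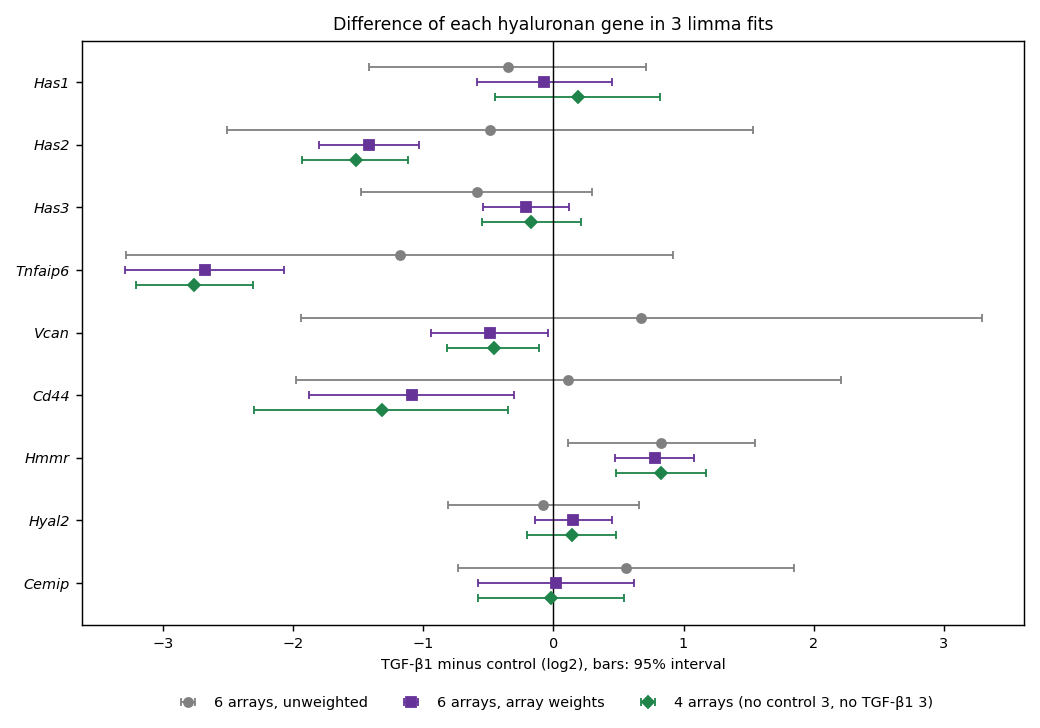
Difference of the 9 hyaluronan genes, TGF-β1 minus control in log2 units (horizontal axis), in the unweighted fit of 6 arrays, the array-weighted fit and the fit of 4 arrays; bars are 95% intervals of limma. Vcan and Cd44 lie at 0.67 and 0.11 in the unweighted fit and below 0 in the other 2, while Hmmr lies between 0.78 and 0.83 in all 3.

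Hmmr (Entrez gene 15366) encodes RHAMM, which was named as a hyaluronan receptor and inside the cell binds microtubules of the mitotic spindle. It was at 7.37, 7.36 and 7.05 in TGF-β1 1, 2 and 3, against 6.46, 6.62 and 6.22 in the controls. All 3 TGF-β1 arrays lay above all 3 controls, control 3 included. Hmmr rose by 0.78 ± 0.14 with array weights (SE, limma adjusted p = 0.00648), 1.71-fold, and by 0.83 ± 0.15 with 4 arrays (limma adjusted p = 0.0388). The unweighted difference of 6 arrays was as large, 0.83 ± 0.30, and did not pass over all genes (limma adjusted p = 0.776). Leaving out each array in turn moved it between 0.72 and 0.93.

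Genes of the mitotic spindle, the intracellular setting of RHAMM, were read beside it. The list also holds more general genes of dividing cells, such as Mki67, and is called spindle genes for short. Of 12 listed, 11 were measured; 4 rose, 0 fell and 7 did not pass in both fits (7 passed as higher in the array-weighted fit). Their median difference was 0.79 with array weights and 0.79 with 4 arrays, beside 0.01 over all genes in both. Ccnb2, a mitotic cyclin, rose by 0.95 ± 0.14 with array weights (limma adjusted p = 0.00281), Birc5, a chromosome passenger protein, by 0.82 ± 0.15, and Bub1, a kinase of the spindle checkpoint, by 0.79 ± 0.15. The fourth was Mki67, a marker of cycling cells, at 1.06 ± 0.21, named after its values were seen. None of the 4 passed in the unweighted fit, where their differences were 1.31 for Ccnb2, 1.02 for Birc5, 0.78 for Bub1 and 2.02 for Mki67 (limma adjusted p = 0.776 for each). Bub1 was at 7.60, 7.56 and 6.91 in the TGF-β1 arrays, against 6.85, 6.73 and 6.15 in the controls, so that TGF-β1 3 was the lowest of its group for Bub1 as for Hmmr. The same held for Mki67 (11.53, 11.30 and 10.45 in TGF-β1 1, 2 and 3). For Ccnb2, however, TGF-β1 3 was the highest of its group (10.17, 9.97 and 10.24), and for Birc5 it lay in the middle (10.61, 10.47 and 10.53). In the TGF-β1 arrays the mean over the 11 genes was 9.37, 9.26 and 9.00, against 8.57, 8.62 and 6.78 in the controls. RefSeq gave a promoter for 11 of the 12 listed spindle genes, which need not be the 11 measured. A gene was counted if at least 1 of its promoters held the motif. So counted, 10 held CCAAT and 8 held both CCAAT and TTTGAA. The Hmmr promoter printed above holds both, and so does that of Has1, which passed in no fit. The shares over all promoters given above count each promoter singly and are not a like measure. The part of a larger share of dividing cells in the Hmmr value was not tested.

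**Figure D3:**
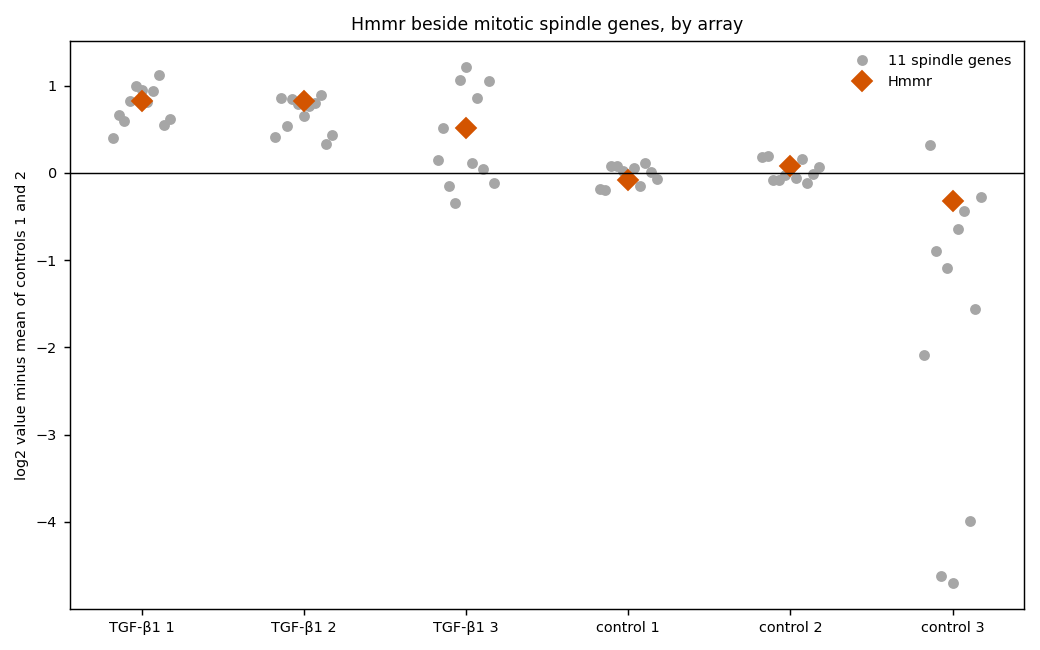
Log2 value of Hmmr (diamonds) and of 11 genes of the mitotic spindle and of dividing cells (grey points, spindle genes for short), each minus its mean over controls 1 and 2 (vertical axis), in each array. Hmmr and the spindle genes lie above 0 in TGF-β1 1 and 2, the spindle genes spread to both sides of 0 in TGF-β1 3, and several fall far below 0 in control 3.

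On the breakdown side, Hyal2 (Entrez gene 15587), a membrane-anchored hyaluronidase, did not pass in any fit. It was at 9.19, 9.06 and 8.98 in the TGF-β1 arrays, against 9.00, 8.97 and 9.49 in the controls. The groups overlapped, and control 3 was the highest array. Its difference was 0.15 with array weights (95% interval -0.14 to 0.45, limma adjusted p = 0.606), 0.14 with 4 arrays and -0.08 unweighted (limma adjusted p = 0.912).

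Cemip (Entrez gene 80982), a secreted protein needed for hyaluronan breakdown by fibroblasts, was high in 1 array. It was at 5.11, 5.82 and 7.24 in TGF-β1 1, 2 and 3, against 5.56, 5.41 and 5.54 in the controls. TGF-β1 3 stood apart from all other arrays, and TGF-β1 1 was the lowest of the 6. Cemip lay under the lower quartile of the array in TGF-β1 1 (5.15) and in control 3 (5.79). In controls 1 and 2 that quartile was 5.11 and 5.13, and no measure of background is given. The difference was 0.02 with array weights (95% interval -0.58 to 0.62, limma adjusted p = 0.981), -0.02 with 4 arrays and 0.56 ± 0.55 unweighted (limma adjusted p = 0.776); without TGF-β1 3 the unweighted difference was -0.04.

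Other genes of the pathway were taken from 7 further lists. Of 7 measured enzymes that supply the UDP-sugars, 0 rose, 1 fell and 6 did not pass. The one that fell was Ugdh, which makes UDP-glucuronic acid. It was at 9.22, 8.99 and 10.10 in the TGF-β1 arrays, against 10.10, 10.27 and 7.12 in the controls, so TGF-β1 3 lay at the level of control 1. Ugdh fell by 1.01 ± 0.20 with array weights (limma adjusted p = 0.00996) and it fell by 1.08 ± 0.16 with 4 arrays (limma adjusted p = 0.0263), and its unweighted difference was 0.28 (limma adjusted p = 0.886).

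Of 6 ADAMTS proteases that cleave versican, 0 rose, 2 fell and 4 did not pass. Adamts1 was at 9.55, 9.28 and 8.54 in the TGF-β1 arrays, against 10.55, 10.85 and 7.37 in the controls. It fell by 1.34 ± 0.20 with array weights (limma adjusted p = 0.00308) and it fell by 1.28 ± 0.18 with 4 arrays. With all 6 arrays unweighted the difference of Adamts1 was -0.46 ± 0.91 (limma adjusted p = 0.823), and it was 0.02 without control 1 and 0.17 without control 2. Adamts5, also an aggrecanase, was at 6.81, 6.24 and 7.00, against 8.07, 8.15 and 6.39, and fell by 1.49 ± 0.19 with array weights (limma adjusted p = 0.00110), against an unweighted difference of -0.85 ± 0.54 (limma adjusted p = 0.776). For both genes all 3 TGF-β1 arrays lay under controls 1 and 2, while control 3 lay under all 3 TGF-β1 arrays for Adamts1 and within their range for Adamts5. Of 7 measured partners of CD44, 0 rose, 1 fell and 6 did not pass. The one was Mmp14, a membrane metalloprotease that sheds CD44, at 10.12, 10.09 and 9.99 in the TGF-β1 arrays, against 11.11, 11.27 and 8.69 in the controls. It fell by 1.11 ± 0.15 with array weights (limma adjusted p = 0.00185). Its unweighted difference was -0.29 ± 0.69 (limma adjusted p = 0.85), and it was 0.08 without control 1 and 0.16 without control 2.

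The remaining lists had no gene that passed in both fits. Of 7 other measured breakdown enzymes, Hexa, a lysosomal hexosaminidase subunit, passed with array weights (-1.06 ± 0.21, limma adjusted p = 0.0113) but not with 4 arrays (limma adjusted p = 0.0513). Of 6 other receptors, Tlr2, an innate immune receptor that responds to hyaluronan fragments, had the smallest p (-0.53, limma adjusted p = 0.0989). Of 7 other proteoglycans and link proteins, Hapln1, a link protein that fastens proteoglycans to hyaluronan, had the smallest p (-1.28, limma adjusted p = 0.0676). Hapln1 was at 5.30, 5.05 and 5.57 in the TGF-β1 arrays, against 5.09, 7.02 and 6.88 in the controls, so control 1 lay with the TGF-β1 arrays. Of 7 partners of TSG-6, which are the inter-α-inhibitor chains and pentraxin 3, Ambp, the bikunin precursor, had the smallest p (0.32, limma adjusted p = 0.258).

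**Figure D4:**
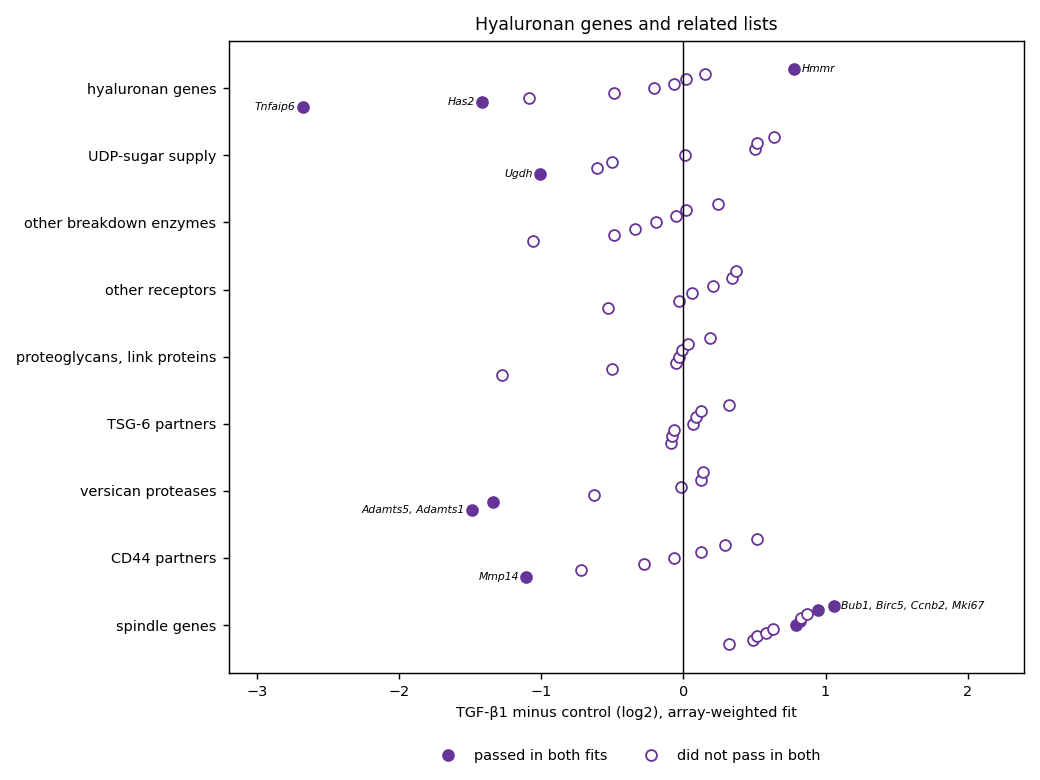
Difference of each gene, TGF-β1 minus control in log2 units in the array-weighted fit (horizontal axis), by list; filled points passed both with array weights and in the fit of 4 arrays. Tnfaip6 (-2.68), Adamts5 (-1.49) and Has2 (-1.42) lie farthest to the left of the filled points, and the filled points to the right of 0 are Hmmr and 4 spindle genes.

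Markers of the gland's cell types were read beside these genes, and their part in the results was not tested. Of 10 measured mesenchyme markers, 0 rose and 0 fell in both fits (Twist1 and Prrx1 passed as lower in the array-weighted fit). Their median difference was -0.44 with array weights, beside 0.01 over all genes. Their mean value was 9.00 to 9.31 in the TGF-β1 arrays, against 9.31 and 9.72 in controls 1 and 2 and 7.23 in control 3. With array weights the median was 0.60 for epithelial, 0.67 for muscle and myoepithelial and 0.66 for nerve markers. It was 0.07 for endothelial, -0.01 for cartilage and -0.34 for leukocyte markers. Of 10 epithelial markers, 2 rose (Cldn3, a tight junction protein, and Sox10, a transcription factor of distal salivary epithelium and of neural crest), 0 fell and 8 did not pass in both fits (Epcam, an epithelial adhesion protein, passed as higher in the array-weighted fit), and their mean was 9.87 to 10.76 in the TGF-β1 arrays, against 9.53 to 9.76 in controls 2 and 1 and 7.61 in control 3. Of 7 measured leukocyte markers 0 passed, with a mean of 6.60 to 7.47 in the TGF-β1 arrays, against 6.77 to 7.24 in the controls. Of 6 endothelial markers 1 fell (Kdr, a VEGF receptor) and 5 did not pass, with a mean of 5.40 to 6.33 in the TGF-β1 arrays, against 5.52 to 6.29 in the controls. Of 5 muscle and myoepithelial, 5 cartilage and 3 measured nerve markers, 0 passed in both fits (Acta2 and Cnn1 of muscle and Tubb3, Elavl4 and Stmn2 of nerve passed as higher in the array-weighted fit), nor did Alas2, the 1 measured erythroid marker. The values have no true zero, so no marker could be read as absent. The markers named here were named after their values were seen.

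For each member the gene with the most similar pattern was found, as the smallest root mean square difference between values centred over the 6 arrays. Predicted genes, unnamed clones, receptors of smell and small RNA genes were left out of this search. For Has2 it was Slc7a5, an amino acid transporter, at 0.16 log2 units. For Tnfaip6 it was Bcat1, a branched-chain aminotransferase, at 0.23, and for Hmmr it was H3c8, a histone H3 gene, at 0.06. Cd44 was nearest to Tnfrsf12a, the receptor of TWEAK, at 0.25, Vcan to Ehbp1 at 0.12 and Cemip to Cd14, a co-receptor for bacterial lipopolysaccharide, at 0.12. Has1, Has3 and Hyal2 were nearest to Lncpint (0.16), Taf8 (0.05) and Slc22a28 (0.03). Slc7a5 was at 9.72, 9.55 and 9.28 in the TGF-β1 arrays, against 11.07, 10.71 and 7.49 in the controls, with the TGF-β1 arrays under controls 1 and 2 and above control 3, as for Has2. Such matches over 6 arrays are a description, and control 3 counts in them as much as any other array.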

How the data were processed

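The deposited table holds log2 expression values of 22206 probe sets in 6 arrays, made by the authors with RMA per the submitters' processing notes, with no version or genome build given in the sources used here. The 6 columns do not share one distribution (interquartile range 2.05 in control 3, 3.17 to 3.26 in the others). Values were used as deposited. The arrays' number limits the precision. Of the probe sets, 19572 had 1 gene symbol, 0 several and 2634 none; all 19572 Entrez identifiers matched the RefSeq gene table, and 19505 genes remained.

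The test was limma's (version 3.58.1, run in R 4.3.3, two-sided, default settings), with Benjamini-Hochberg adjustment over all genes. The alternatives were array weights, control 3 left out with and without weights, control 3 and TGF-β1 3 left out, each array left out, quantile normalization, median centring, a filter on the lowest 33.3% of genes, the mean of probe sets, a trended and robust prior, and the replicate number as a block. Members and lists were chosen with earlier results of these data known. Genes named are all members, up to 3 per list and direction that passed with array weights or the 1 of smallest p, and the nearest gene in pattern to each member. Outside this rule, Actb, Gapdh, Mki67 and the cell type markers were named after their values were seen. Listed genes without a measured symbol were not used here.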

Additional observations from a re-analysis of the deposited data

How the results depend on the processing

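Over all genes, 0 passed in the unweighted fit of 6 arrays, 1342 with array weights, 544 with array weights but without control 3, and 505 without control 3 and TGF-β1 3; of the 9 hyaluronan genes 0 passed in the first and 3 in each of the other fits, and of the genes in the related lists 0, 12, 9 and 9. The other alternatives passed 0 genes: quantile normalization, median centring, the filter on dim genes, the mean of probe sets, a trended and robust prior, the replicate block (0 genes, 0 hyaluronan genes) and each array left out in turn, control 3 among them. Whether arrays of the same replicate number shared a culture or animals is not given. The deviations of same-numbered arrays from their group means correlated at -0.066, -0.008 and -0.050. The unlike control 3 counts in the control mean, so these values cannot decide it.

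Signs that the unweighted fit of 6 arrays gave turned for several genes in fits in which control 3, TGF-β1 3 or both counted for less. Without control 3 alone they turned for Cd44, Vcan, Hyal2, Ugdh, Hexa, Tlr2 and Ambp, but not for Has1 (-0.17) and Cemip (0.58). Without TGF-β1 3 alone they turned for Has1 (0.01), Cemip (-0.04), Cd44 (-0.42), Ugdh (-0.06) and Hexa (-0.03). With array weights the differences were -1.09 for Cd44, -0.49 for Vcan, 0.15 for Hyal2, -1.01 for Ugdh, -1.06 for Hexa, -0.53 for Tlr2 and 0.32 for Ambp. With array weights and without control 3 they were 0.01 for Has1, -1.02 for Cd44, -0.48 for Vcan, 0.15 for Hyal2, -0.03 for Cemip, -0.99 for Ugdh, -0.98 for Hexa, -0.51 for Tlr2 and 0.37 for Ambp. With 4 arrays they were 0.19 for Has1, -1.32 for Cd44, -0.46 for Vcan, 0.14 for Hyal2, -0.02 for Cemip, -1.08 for Ugdh, -1.00 for Hexa, -0.44 for Tlr2 and 0.36 for Ambp. Leaving out each array in turn, unweighted, gave ranges of -0.73 to 0.01 for Has1, -1.57 to 0.12 for Has2, -0.79 to 0.74 for Cd44, -0.74 to 1.41 for Vcan, -0.17 to 0.09 for Hyal2, -0.04 to 1.03 for Cemip, -0.75 to 0.83 for Ugdh, -0.67 to 0.89 for Hexa, -0.43 to 0.53 for Tlr2, -0.68 to 0.30 for Ambp, -1.57 to 0.17 for Adamts1 and -1.13 to 0.16 for Mmp14. Of these genes only Has2, Ugdh, Hexa, Adamts1 and Mmp14 passed with array weights. The differences of Has3, Hmmr, Tnfaip6, Hapln1, Adamts5, Ccnb2, Birc5 and Bub1 kept their sign in every alternative that tested them. Has3, Hapln1, Cemip and Ambp were not among the genes kept by the filter. Control 3 was not low throughout: its lower quartile (5.79) and median (6.80) were the highest of the 6 arrays, and its upper quartile (7.84) was the lowest. The cause of the unlike values of control 3 was not tested.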
